A study of Mus musculus with 12 samples.

Results

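The postsynaptic density scaffold genes followed here are 9 genes, *Dlg4*, *Dlg2*, *Dlg3*, *Dlgap1*, *Shank1*, *Shank2*, *Shank3*, *Homer1* and *Homer2*, chosen by name from the 29608 genes of a mouse array. The array holds 23 probes for them among its 39429 probes, and 8 of the 9 genes had at least 1 spot that passed the filter in all 12 samples. *Shank2* had none, and its values come from spots that were not filtered. Hippocampal RNA of adult female mice was measured in 3 phenotypes with 4 mice each, all killed at about 12 weeks of age in diestrus. MRL/lpr mice carry a loss-of-function mutation of *Fas* on the MRL background and develop a lupus-like disease with altered behaviour. Fn14ko mice are MRL/lpr mice that also lack Fn14, the receptor encoded by *Tnfrsf12a* for the cytokine TWEAK, and were littermates of the MRL/lpr mice after backcrossing. MRL/+ mice, labelled MRL/MpJ, share the MRL background without the *lpr* mutation and were bought from another breeder, so breeder and phenotype cannot be told apart in either comparison with them. The labels name the hippocampus as the tissue, although their free text speaks of cortex.

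The postsynaptic density is a protein sheet under the membrane of excitatory synapses that holds glutamate receptors opposite the site of transmitter release. Its scaffold is layered. Proteins of the Dlg family bind receptor tails at the membrane, Dlgap proteins link them to Shank proteins further in, and Homer proteins tie Shank to metabotropic glutamate receptors and to intracellular calcium stores. In the hippocampus these proteins are known for their part in synaptic plasticity, and long Homer1 proteins cross-link the scaffold whereas the short, activity-induced Homer1a lacks the coiled coil needed for it.

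Each array probe has 60 bases, and a few probes show what the values can and cannot separate. They are printed as the deposited files give them, with positions in mm9. The first pair belongs to *Homer1* and distinguishes its short and long transcripts. The capitals mark the stop codon with which the reading frame of the short form ends at chr13:94126009-94126068, while the probe of the long form at chr13:94157507-94157566 holds no stop codon in the frame read from its first base and is in lower case throughout.
Homer1 variant S: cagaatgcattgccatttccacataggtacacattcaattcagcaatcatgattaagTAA
Homer1 variant L: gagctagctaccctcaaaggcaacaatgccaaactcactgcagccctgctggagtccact
The second pair are probes of *Shank3* at chr15:89388668-89388727 and of *Shank2* at chr7:151606981-151607040. The capitals mark the stretch of 33 bases over which the probes align without gaps, of which 23 are the same base (69.7%), so these probes of related genes are alike but not identical.
Shank3: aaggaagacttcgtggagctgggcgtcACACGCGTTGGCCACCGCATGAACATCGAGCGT
Shank2: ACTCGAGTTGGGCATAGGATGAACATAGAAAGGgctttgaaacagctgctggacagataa
The last is the start of the *Dlg2* probe at chr7:99597105-99597164, which is shown because the clearest difference between phenotypes rests on this 1 oligonucleotide.
Dlg2, first bases: acacttcagtctgtaaatattcttcctcac

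Levels are given as multiples of the median spot of each channel, so that 1 is a spot of median brightness, and they are compared between phenotypes but not between probes. Each of the 6 arrays held 2 mice of 1 phenotype, with replicates 1 and 3 in Cy3 and replicates 2 and 4 in Cy5. Both arrays of a phenotype lay on 1 slide, so slide and phenotype cannot be told apart. MRL/lpr replicates 3 and 4 share a weak array, whose channel medians were 170 and 74.7, while those of the other 10 samples were 684 to 4545. Of their spots 25.2% and 19.6% were well above background, beside 29.6% to 68.1% in the other 10. Their log2 levels correlated with those of the other 10 samples at only r = 0.263 to 0.492. The other 10 samples correlated among themselves at 0.857 to 0.994. The negative-control probes of the array, which match no mouse transcript, had a median level of 0.0721 and 0.341 in these 2 samples, of 0.255 and 0.187 in MRL/+ replicates 2 and 4, and of 0.0014 to 0.0275 in the other 8. Of the 23 scaffold probes, only that of *Dlg3* stood above the 95th percentile of the negative controls in all 12 samples, and most of the others missed it in MRL/lpr replicates 3 and 4. Dim probes such as those of *Shank1* and *Shank2* had their highest values in the samples with high negative controls, and their differences moved when the median of the negative controls was subtracted in place of the local background. For Fn14ko against MRL/+ the log2 difference went from -1.38 to 0.52 for the *Shank1* probe A_55_P1994550, from -0.62 to 0.71 for A_55_P2062181, and from -1.35 to -1.16 and from -1.57 to -1.65 for A_55_P2062187 and A_55_P1994554. The *Shank2* probes A_55_P2051656 and A_55_P1984401 went from -1.40 to 0 and from -1.04 to -0.55. An exact 0 is what values set to the floor of 1% of the channel median give, and it is not a measured difference.

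As a check of the labels, *Tnfrsf12a* stood at 0.177, 0.160, 0.189 and 0.151 in Fn14ko replicates 1 to 4, at 0.439, 0.307, 0.241 and 0.247 in MRL/lpr and at 0.283, 0.629, 0.503 and 0.502 in MRL/+. The 4 Fn14ko samples were the lowest of the 12, but the difference did not pass the threshold against MRL/+ (adjusted p = 0.0972) or MRL/lpr (adjusted p = 0.124), its spot exceeded background clearly in all 4 Fn14ko samples, and against MRL/lpr its sign turned when channels were scaled by all spots (log2 difference of MRL/lpr over Fn14ko from 0.83 to -0.63). Whether this single probe lies in the deleted part of the gene is not given in the sources used here. The single probe of *Fas* overlapped between all phenotypes. Among the marker lists, the 10 pan-neuronal genes were all well above background in all 12 samples, with a summed level of 48.0 to 108 in MRL/lpr, 72.8 to 109 in Fn14ko and 88.2 to 128 in MRL/+, and none of them passed the threshold in any comparison. Other markers did pass. Among the 7 hippocampal neuron markers tested, *Zbtb20* was higher in MRL/lpr than in MRL/+ (median of the list 1.67), and *Zbtb20*, *C1ql2* and *Fibcd1* were higher than in Fn14ko (median 2.17). Of 6 microglial markers, *Cx3cr1* and *P2ry12* were lower in MRL/lpr than in MRL/+ (median -1.02) and *P2ry12* was lower than in Fn14ko (median -0.49). *Gfap* of astrocytes and *Ttr* of the choroid plexus were higher in MRL/lpr than in either Fn14ko or MRL/+, *Mog* of oligodendrocytes was higher than in MRL/+, and the striatal *Ppp1r1b* was lower than in Fn14ko. No endothelial marker passed, and no marker of any list passed in Fn14ko against MRL/+. Every hippocampal, striatal, glial, choroid plexus and endothelial marker on the array was well above background in at least 1 sample of each phenotype. The 8 choroid plexus markers summed to 9.58 to 38.7 in MRL/lpr, 0.631 to 5.63 in Fn14ko and 1.01 to 2.67 in MRL/+. The 9 striatal markers summed to 9.08 to 25.03 in Fn14ko, 5.26 to 8.81 in MRL/+ and 3.82 to 5.60 in MRL/lpr. The 10 hippocampal neuron markers summed to 9.49 to 19.0 in MRL/lpr, 8.23 to 12.4 in Fn14ko and 8.69 to 15.5 in MRL/+. The part of these other cells in the values of the scaffold genes was not tested, and in whole tissue fewer neurons and less RNA per neuron cannot be told apart.

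*Dlg2*, which encodes PSD-93, a membrane scaffold of NMDA receptors and potassium channels, was the member with the clearest difference. It stood at 1.05, 1.00, 0.769 and 0.687 in MRL/lpr replicates 1 to 4. In Fn14ko the levels were 1.62, 1.75, 0.951 and 1.31. In MRL/+ they were 2.30, 2.53, 2.20 and 3.04. The MRL/lpr samples all lay below the MRL/+ samples, and Fn14ko lay between, below all of MRL/+ and overlapping MRL/lpr by its replicate 3. *Dlg2* was 2.89-fold lower in MRL/lpr than in MRL/+, with a log2 fold change of -1.53 (SE 0.249, 95% interval -2.08 to -0.99, adjusted p = 0.0072, exact permutation p = 0.0286, n = 4 and 4). The exact p is the smallest that 4 samples against 4 allow.

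The fall of *Dlg2* in MRL/lpr was seen in both dyes, with log2 differences of -1.32 in Cy3 and -1.74 in Cy5, and remained past the threshold without the weak array (-1.14, adjusted p = 0.0098). That fit over genes averaged the *Dlg2* probes valid in the other 10 samples. The printed probe alone gave -1.12 (adjusted p = 0.0064) in the fit over probes. In both fits MRL/lpr was left as 2 mice on 1 array. The *Dlg2* probe stood above the 95th percentile of the negative controls in the 10 samples outside the weak array and not in the 2 on it. It was called under 24 of the 28 alternatives and had the same direction in all 28. With array as a random block the adjusted p was 0.199, since samples of 1 array resembled each other (consensus correlation 0.710), and each phenotype has only 2 arrays. Against Fn14ko, *Dlg2* was 1.59-fold lower in MRL/lpr (log2 -0.67, SE 0.249, adjusted p = 0.104), which did not pass. Fn14ko against MRL/+ gave -0.87 (SE 0.249, 95% interval -1.41 to -0.32, adjusted p = 0.126), with -0.86 in Cy3 and -0.88 in Cy5. This difference passed without the weak array (-0.65, adjusted p = 0.0371).

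The array has 2 more *Dlg2* probes. The one at chr7:99595368-99595427 was valid in 10 of 12 samples and gave -0.99 for MRL/lpr against MRL/+ with all samples (adjusted p = 0.388) and -1.59 without the weak array (adjusted p = 0.0092). The median of all probes was 0.19 with all samples and -0.56 without the weak array. The Fn14ko levels of this probe, 0.0246 to 0.0555, were below all of MRL/+, 0.0706 to 0.209. This probe did not exceed the 95th percentile of the negative controls in any MRL/lpr sample or in MRL/+ replicates 2 and 4, and with negative-control background its differences from MRL/+ were -0.68 (adjusted p = 0.545) in MRL/lpr and -0.054 in Fn14ko. The probe at chr7:97671237-97671296 was not well above background in any of the 12 samples and gives no information on *Dlg2*.

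**Figure D1:**
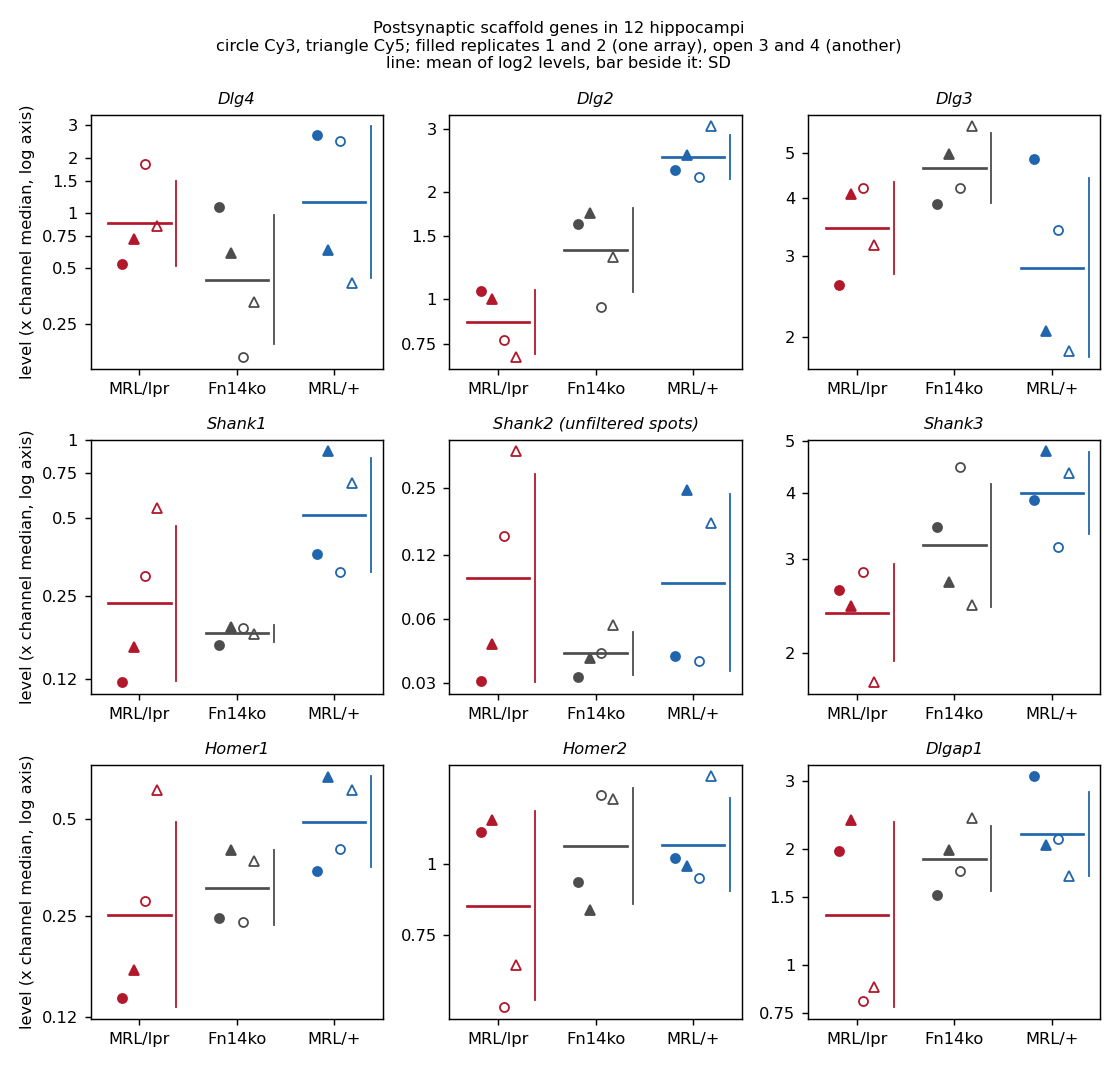
Level of the 9 scaffold genes in each of the 12 hippocampi, on a log axis in multiples of the channel median, with circles for Cy3, triangles for Cy5 and open symbols for replicates 3 and 4 of a phenotype. Lines are means of log2 levels and bars their SD (n = 4). The MRL/lpr samples of *Dlg2*, at 0.687 to 1.05, lie below all MRL/+ samples, at 2.20 to 3.04, while in *Dlg4* and *Dlg3* the MRL/+ samples split by dye.

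*Dlg4*, which encodes PSD-95, an abundant scaffold of the postsynaptic density, showed no difference that passed the threshold. Its levels were 0.528, 0.726, 1.84 and 0.847 in MRL/lpr and 1.08, 0.606, 0.164 and 0.330 in Fn14ko. The MRL/+ levels were 2.67 and 2.47 in Cy3 but 0.632 and 0.416 in Cy5, so the dyes split that phenotype. MRL/lpr against MRL/+ was -1.38 on the log2 scale in Cy3 and 0.61 in Cy5, with -0.39 (SE 0.652, 95% interval -1.81 to 1.04, adjusted p = 0.671) overall. Fn14ko against MRL/+ was -1.40 (SE 0.652, adjusted p = 0.338), from -2.61 in Cy3 and -0.20 in Cy5. MRL/lpr against Fn14ko was 1.02 (SE 0.652, 95% interval -0.41 to 2.44, adjusted p = 0.242). Only 1 probe represents this gene, at chr11:69858757-69858816.

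For *Dlg3*, which encodes SAP102, the Dlg protein that is prominent early in development, the values were the firmest over background. They were 2.59, 4.08, 4.20 and 3.16 in MRL/lpr, 3.87, 4.97, 4.20 and 5.70 in Fn14ko, and 4.84, 2.06, 3.41 and 1.87 in MRL/+. All 3 phenotypes overlapped. Fn14ko stood 0.71 above MRL/+ on the log2 scale (SE 0.320, 95% interval 0.02 to 1.41, adjusted p = 0.312), with 1.44 in Cy5 and -0.01 in Cy3, and did not pass. Without the weak array the difference was 0.97, past the threshold in the fit over probes (adjusted p = 0.0489) but not in that over genes (adjusted p = 0.0755). MRL/lpr differed from MRL/+ by 0.29 (95% interval -0.41 to 0.98, adjusted p = 0.520) and from Fn14ko by -0.43 (95% interval -1.13 to 0.27, adjusted p = 0.305).

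*Dlgap1* encodes GKAP, the link between the Dlg proteins and Shank. It stood at 1.98, 2.38, 0.807 and 0.876 in MRL/lpr, 1.52, 1.99, 1.75 and 2.40 in Fn14ko and 3.09, 2.05, 2.12 and 1.70 in MRL/+. The 2 low values are those of the weak array, and the other 2 MRL/lpr samples lay within the range of the other phenotypes. MRL/lpr against MRL/+ was -0.69 (SE 0.371, adjusted p = 0.189), and 0.022 (adjusted p = 0.959) without the weak array. The difference from Fn14ko was -0.48 (SE 0.371, adjusted p = 0.317). Fn14ko and MRL/+ differed by -0.21 (95% interval -1.02 to 0.60, adjusted p = 0.867). The 2 *Dlgap1* probes that did not pass the filter in all samples gave -0.92 and -1.09 for MRL/lpr against MRL/+, and 0.06 and -0.68 without the weak array, and none of the 3 was called in this comparison. At the second of them, at chr17:71165374-71165433, MRL/lpr and Fn14ko both lay below all MRL/+ samples, and Fn14ko was called lower without the weak array (-0.61, adjusted p = 0.0359). The median of all probes there was -0.74, so this probe was lowered less than the median probe.

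The Shank proteins form the inner layer of the scaffold. *Shank3*, the best measured of them, stood at 2.62, 2.45, 2.83 and 1.76 in MRL/lpr, 3.45, 2.72, 4.47 and 2.46 in Fn14ko and 3.88, 4.79, 3.17 and 4.35 in MRL/+. All MRL/lpr samples lay below all MRL/+ samples, and Fn14ko overlapped both. The difference between MRL/lpr and MRL/+ was -0.75 (SE 0.254, 95% interval -1.30 to -0.20, adjusted p = 0.0747, exact permutation p = 0.0286), which did not pass the threshold. It was -0.36 in Cy3 and -1.14 in Cy5, and -0.50 without the weak array. MRL/lpr against Fn14ko gave -0.42 (adjusted p = 0.216) and Fn14ko against MRL/+ gave -0.33 (adjusted p = 0.643).

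The *Shank3* probe at chr15:89390449-89390508 was printed 10 times on each array, which shows the error of a single spot. The coefficient of variation among its 10 spots was 14.9% in MRL/+ replicate 1 and reached 36.6% in MRL/+ replicate 2, where the brightest spot was 4.71 times the dimmest. In MRL/+ replicate 4 that ratio was 5.91, and in the Fn14ko samples it was 1.60 to 1.88. Most other members rest on 1 spot per probe, so a single level of theirs can carry an error of this size. The second *Shank3* probe, printed above, was valid in 9 of 12 samples, well above background in 1 of 4 MRL/lpr samples, and gave no call with all samples, and without the weak array it was lower in both MRL/lpr (-1.97, adjusted p = 0.0168) and Fn14ko (-1.70, adjusted p = 0.0114) than in MRL/+. The medians of all probes there were -0.56 and -0.74. This probe exceeded the 95th percentile of the negative controls in 5 of 12 samples, none of them MRL/lpr, and with negative-control background the difference of Fn14ko from MRL/+ went from -1.96 to -0.49 (adjusted p = 0.772).

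**Figure D2:**
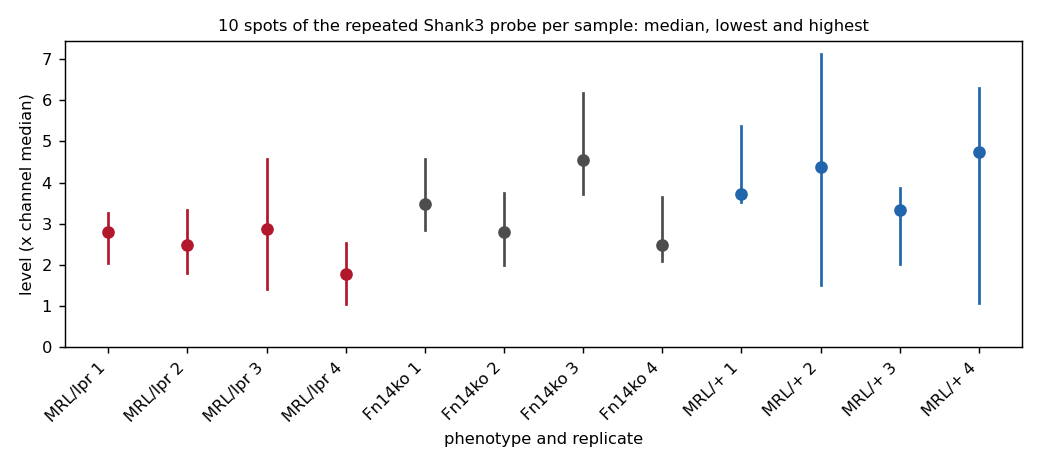
The 10 spots of the *Shank3* probe at the higher coordinate in each sample, in multiples of the channel median on a linear axis, with the median as a point and a line from the lowest to the highest spot. The lines are longest in MRL/+ replicates 2 and 4, whose brightest spots were 4.71 and 5.91 times their dimmest.

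*Shank1* stood at 0.116, 0.160, 0.300 and 0.546 in MRL/lpr, 0.162, 0.190, 0.189 and 0.179 in Fn14ko and 0.365, 0.905, 0.310 and 0.686 in MRL/+. The Fn14ko samples were close together (coefficient of variation 7.31%) and all below MRL/+, with a log2 difference of -1.52 (SE 0.443, 95% interval -2.49 to -0.55, adjusted p = 0.129, exact permutation p = 0.0286). That difference was -0.94 in Cy3 and -2.09 in Cy5, and passed without the weak array (-1.19, adjusted p = 0.0031). MRL/lpr against MRL/+ was -1.13 (SE 0.443, adjusted p = 0.0986) with all samples. Without the weak array, whose 2 samples held the highest MRL/lpr values, it was -1.66 (adjusted p = 0.0010). MRL/lpr was then left as 2 mice on 1 array. MRL/lpr against Fn14ko was 0.39 (SE 0.443, adjusted p = 0.502) and turned to -0.46 without the weak array.

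*Shank2* had no spot that passed in all samples. Its unfiltered levels were 0.0309, 0.0460, 0.147 and 0.370 in MRL/lpr, 0.0323, 0.0394, 0.0416 and 0.0562 in Fn14ko and 0.0403, 0.242, 0.0383 and 0.170 in MRL/+. The 4 values above 0.1 are those of the weak array and of MRL/+ in Cy5, the channels with the highest negative controls. Fn14ko against MRL/+ was -1.11 (95% interval -2.69 to 0.48, adjusted p = 0.425), from -0.10 in Cy3 and -2.11 in Cy5, and the other comparisons did not pass either (log2 0.07 and 1.18). The probe printed above was not well above background in any MRL/lpr sample.

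*Homer1* had 5 probes spread over the gene on chromosome 13, of which only 1, at chr13:94125924-94125983 in the short transcript, was valid in all 12 samples and stands for the gene in the test. Through this probe *Homer1* stood at 0.138, 0.168, 0.277 and 0.619 in MRL/lpr, 0.246, 0.401, 0.238 and 0.371 in Fn14ko and 0.344, 0.679, 0.403 and 0.618 in MRL/+. Replicate 4 of MRL/lpr, on the weak array, stood alone above the other 3. The differences were -0.97 (SE 0.380, adjusted p = 0.10) for MRL/lpr against MRL/+, -0.28 (SE 0.380, adjusted p = 0.574) against Fn14ko, and -0.68 (SE 0.380, adjusted p = 0.450) for Fn14ko against MRL/+. Without the weak array the fit over genes averaged all *Homer1* probes valid in the other 10 samples. There the first difference passed (-1.02, adjusted p = 0.0061), and so did the second (-0.81, adjusted p = 0.0257). The probe at chr13:94125924-94125983 alone, in the fit over probes, gave -1.52 (adjusted p = 0.0003) and -1.09 (adjusted p = 0.0031). The sign of the first turned with the processed signal of the scanner software (0.25).

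The probes of the long transcript were tested one by one in a fit over all 39429 probes with no filter. The probe furthest downstream, at chr13:94174815-94174874, stood at 0.478, 0.554, 0.288 and 0.328 in MRL/lpr, 0.578, 1.00, 0.717 and 0.835 in Fn14ko and 0.798, 1.02, 0.959 and 1.27 in MRL/+. All 4 MRL/lpr samples lay below all 8 others. It was lower in MRL/lpr than in MRL/+ by a log2 fold change of -1.33 (SE 0.263, 95% interval -1.89 to -0.76, adjusted p = 0.0199), while the median of all probes was 0.19. Against Fn14ko it was lower by -0.95 (SE 0.263, 95% interval -1.51 to -0.38, adjusted p = 0.0473), while the median of all probes was 1.34. Both values moved with the processing. The probe and the median of all probes were -0.66 and -0.045 without the weak array, and -2.40 and -0.089 with the scale of all spots. Fn14ko against MRL/+ was -0.38 (adjusted p = 0.409).

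This probe was valid in 11 samples and well above background in 2 MRL/lpr samples, and it stood above the 95th percentile of the negative controls in the 10 samples outside the weak array only. Without the weak array the difference was -0.79 (adjusted p = 0.0307) against MRL/+ and -0.66 (adjusted p = 0.0824) against Fn14ko, and with array as a random block neither passed (adjusted p = 0.171 and 0.235). The medians of all probes without the weak array were -0.56 and -0.045. The call against Fn14ko was lost in 10 of the 12 fits that left out 1 sample (adjusted p = 0.0669 to 0.165) and passed under 3 of 17 alternatives in all. The call against MRL/+ passed under 10 of 17. It was lost with negative-control background (adjusted p = 0.198) and with the scale of all spots (adjusted p = 0.190), and when any 1 MRL/+ sample was left out (adjusted p = 0.0608, 0.0634, 0.0850 and 0.0929 without replicates 1 to 4).

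The other probe of the long form, printed above, stood at 0.180, 0.2003, 0.301 and 0.361 in MRL/lpr, 0.300, 0.417, 0.282 and 0.534 in Fn14ko and 0.438, 0.414, 0.397 and 0.425 in MRL/+. Its MRL/lpr samples too lay below all MRL/+ samples (-0.74, SE 0.295, adjusted p = 0.182). The stop codon probe of the short form stood at 0.0396 to 0.159 in MRL/lpr, 0.0483 to 0.116 in Fn14ko and 0.0650 to 0.258 in MRL/+ and gave -1.08 (adjusted p = 0.227). The most upstream probe, at chr13:94116595-94116654, gave -1.03 (adjusted p = 0.0720) with no overlap of MRL/lpr and MRL/+. All 5 *Homer1* probes were thus below 0 in MRL/lpr against MRL/+, from -1.33 to -0.74. Without the weak array all 5 passed the threshold, from -1.52 to -0.79, with MRL/lpr left as 2 mice on 1 array. The median of all probes was 0.19 with all samples and -0.56 without the weak array. The 5 probes share RNA and arrays and are not independent. The files list at most 4 transcripts for a probe, so whether the upstream probes also read the long form cannot be told from them.

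**Figure D3:**
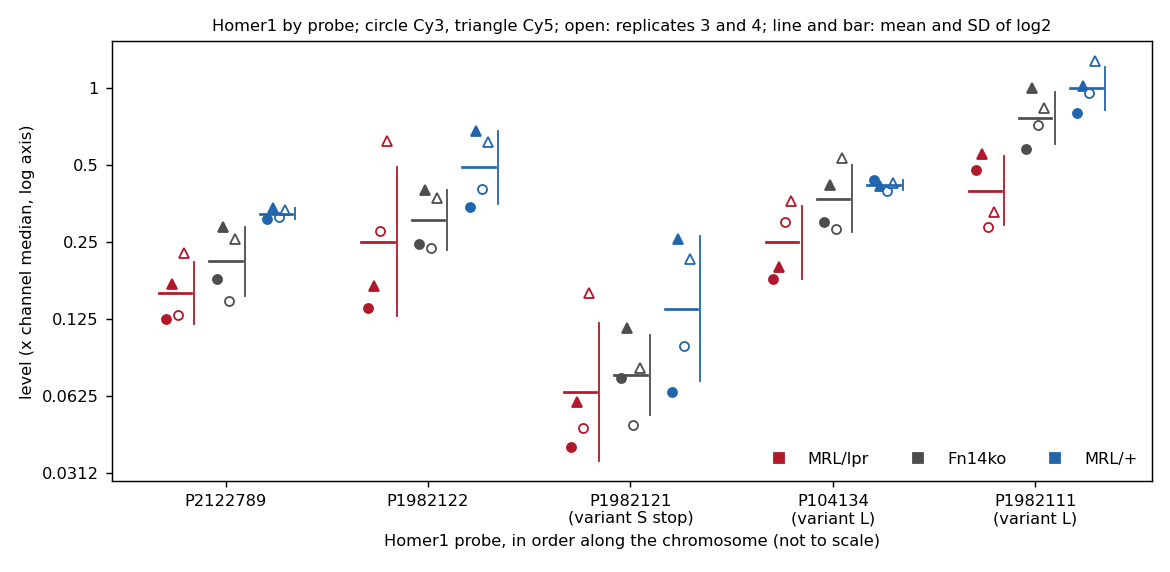
Levels of the 5 *Homer1* probes in order along the chromosome, on a log axis in multiples of the channel median, by phenotype, with circles for Cy3, triangles for Cy5 and open symbols for replicates 3 and 4. Lines and bars are the mean and SD of log2 levels (n = 4). In the last probe, of the long transcript, the MRL/lpr samples lie at 0.288 to 0.554 and all others at 0.578 to 1.27.

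*Homer2*, the related long Homer protein, did not separate the phenotypes. It stood at 1.14, 1.20, 0.559 and 0.663 in MRL/lpr, 0.931, 0.831, 1.33 and 1.30 in Fn14ko and 1.03, 0.993, 0.944 and 1.43 in MRL/+. The 2 MRL/lpr values under 0.7 came from the weak array. The log2 differences were -0.36 (95% interval -1.02 to 0.30, adjusted p = 0.386) for MRL/lpr against MRL/+, -0.35 (95% interval -1.01 to 0.31, adjusted p = 0.371) against Fn14ko and -0.01 (95% interval -0.67 to 0.65, adjusted p = 0.992) for Fn14ko against MRL/+. A second, dimmer probe was not called with all samples, and was lower in Fn14ko than in MRL/+ without the weak array (-1.20, adjusted p = 0.0185), a difference that was -0.70 with negative-control background and all samples. The median of all probes without the weak array was -0.74 in this comparison.

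Across the 8 members tested by gene, 1 passed in MRL/lpr against MRL/+, where 9.17% of all 8864 genes tested passed and 5.71% were lower. An unadjusted p under 0.05 was found for 4 of the 8, *Dlg2*, *Shank1*, *Shank3* and *Homer1*, and for 36.6% of genes. The ranges of MRL/lpr and MRL/+ did not overlap for 2 members, *Dlg2* and *Shank3*, as for 16.1% of all genes. The log2 difference was below 0 for 7 of the 8 members, with a median of -0.72 beside -0.01 for all genes tested and -0.82 for the 10 pan-neuronal markers. In MRL/lpr against Fn14ko no member passed by limma and 3.98% of genes did. An unadjusted p under 0.05 was found for 1 of the 8, *Dlg2*, and for 36.2% of genes, and the median was -0.39 beside 0.03 for all genes and -0.83 for the pan-neuronal markers. No member was without overlap there, as against 21.5% of genes. In Fn14ko against MRL/+ no member passed by limma and 0.519% of genes did, or none of the genes with the replicate number as a block. An unadjusted p under 0.05 was found for 3 of the 8, *Dlg2*, *Dlg3* and *Shank1*, and for 15.3% of genes, and *Dlg2* and *Shank1* were without overlap, as were 19.9% of genes. The members' median of -0.51 stands beside -0.16 for all genes and -0.24 for the pan-neuronal markers. In this last comparison *Shank3*, *Homer1*, *Homer2* and *Dlgap1* turned to 0.58, 0.45, 0.76 and 0.59 when no spot was filtered and channels were scaled by all spots. The comparisons share samples, so their signs are not independent.

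**Figure D4:**
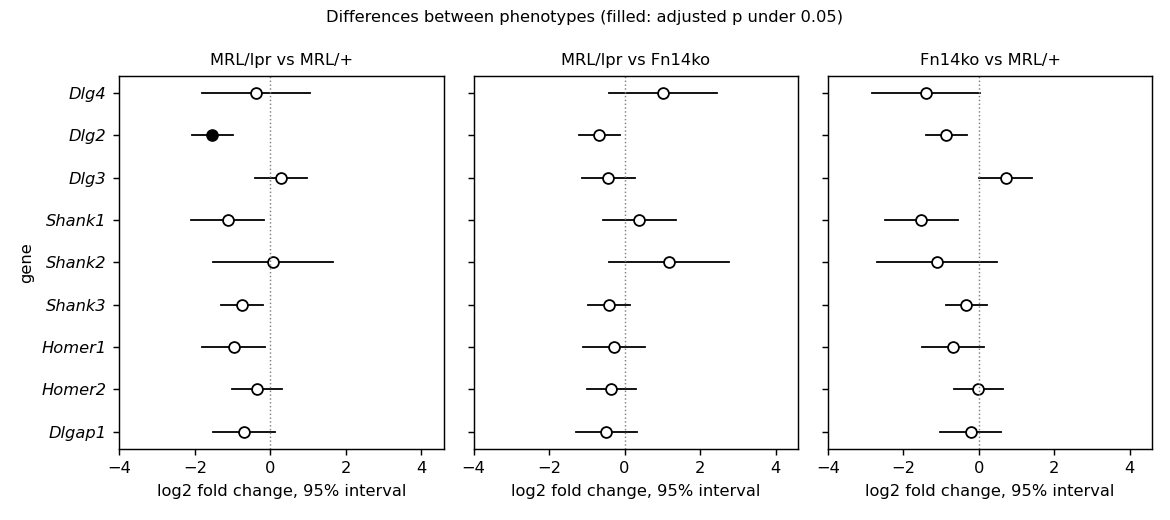
Log2 fold change of each scaffold gene in the 3 comparisons of phenotypes, with 95% intervals from limma (n = 4 and 4) and filled points for an adjusted p under 0.05. The only filled point is *Dlg2* in MRL/lpr against MRL/+, at -1.53.

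By single probe, 2 of the 23 passed in MRL/lpr against MRL/+ (2.38% of all probes), those of *Dlg2* and the long *Homer1*, both lower, as were 1.63% of all probes. The *Homer1* probe alone passed in MRL/lpr against Fn14ko (6.5% of all probes, 1.34% lower), and none did in Fn14ko against MRL/+ (0.271%). The ranges did not overlap for 6, 1 and 9 of the 23 probes in the same order, and for 7.73%, 17.3% and 11.5% of all probes. The medians of the 23 probes were -0.74, -0.23 and -0.86 with all samples, beside 0.19, 1.34 and -1.03 for all probes. In the last comparison the 23 probes were thus lowered less than the median probe. With negative-control background these 2 medians were -0.29 and 0. Probes of 1 gene did not always move together. For *Shank1* against MRL/+, the 4 probes ran from -1.51 to 0.45 in MRL/lpr, and from -2.04 to -0.55 without the weak array. Leaving out the weak array raised the counts of genes to 3, 1 and 2, when 15.7%, 9.12% and 21.1% of 17936 genes passed, and those of probes to 11, 2 and 9 of 23, when 12.8%, 8.71% and 17.2% of all probes passed. The medians of the 23 probes were then -0.98, -0.27 and -0.61, beside -0.56, -0.045 and -0.74 for all probes.

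**Figure D5:**
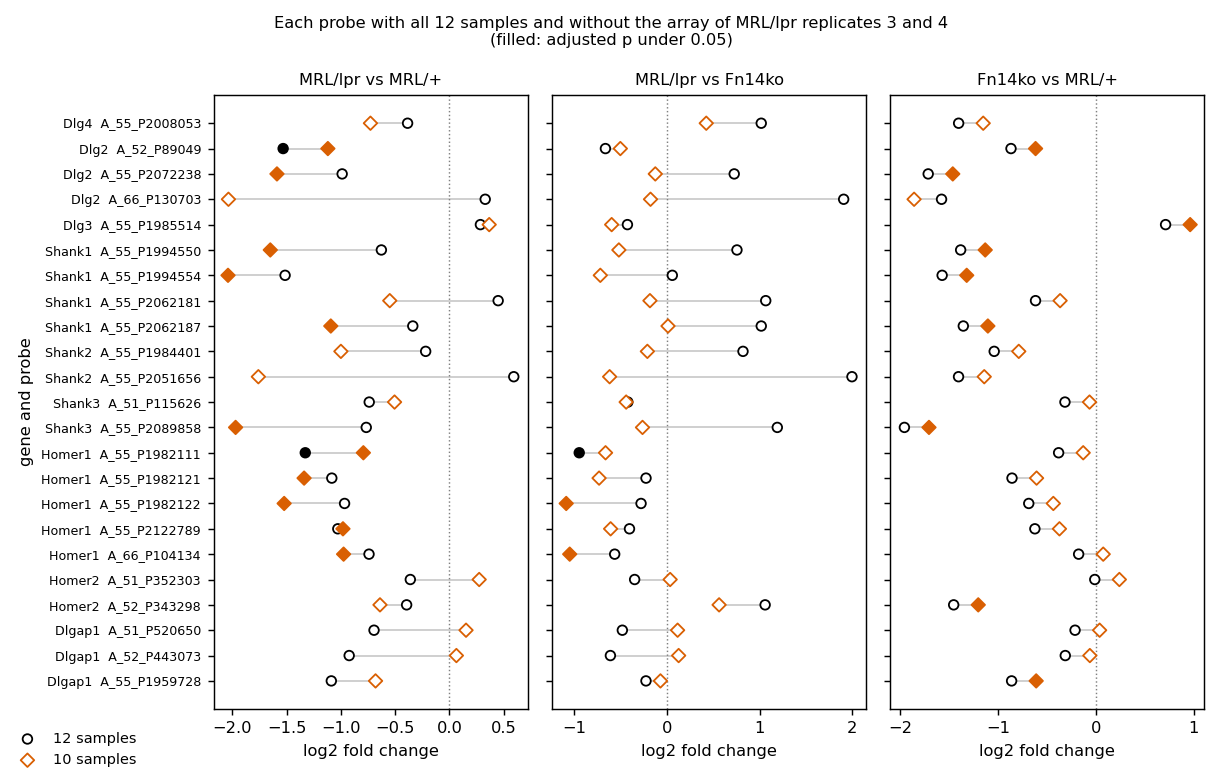
Log2 fold change of each of the 23 scaffold probes in 3 comparisons, from all 12 samples (black circles) and from the 10 samples outside the array of MRL/lpr replicates 3 and 4 (orange diamonds), with filled symbols for an adjusted p under 0.05. The 5 *Homer1* probes lie between -1.52 and -0.74 in MRL/lpr against MRL/+ in both settings, and the probes that shift most there, the third of *Dlg2* and the second of *Shank2*, were not well above background in any MRL/lpr sample.

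The genes around the scaffold were read from 3 lists. Of 21 scaffold relatives, 12 could be tested, and 2 fell in MRL/lpr against MRL/+ while none rose. They were *Dlgap3*, of the same family as *Dlgap1*, at 11.3, 13.3, 12.6 and 8.72 in MRL/lpr and 21.6, 37.5, 19.4 and 29.3 in MRL/+ (-1.20, adjusted p = 0.0297), and *Lin7b*, a small partner of Dlg-type scaffolds (-1.45, adjusted p = 0.0086). The 2 lowest MRL/lpr values of *Lin7b*, 0.529 and 0.684, were those of the weak array. The median of the list was -0.22. Against Fn14ko, *Homer3* alone was called, with 0.298 to 0.466 in MRL/lpr and 0.0639 to 0.0820 in Fn14ko (2.26, adjusted p = 0.0101), in the direction opposite to that of the called *Homer1* probe. Its levels on the weak array, 0.331 and 0.466, lay under the 95th percentile of the negative controls there (1.51 and 2.55). The other MRL/lpr levels and those of Fn14ko lay above it. None was called in Fn14ko against MRL/+.

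Of 20 signalling enzymes of the postsynaptic density and their regulators, 16 were tested. In MRL/lpr against MRL/+ 3 fell and none rose, namely *Iqsec1* (-1.53, adjusted p = 0.0415) and *Iqsec3* (-0.86, adjusted p = 0.0368), both activators of ARF GTPases, and the adhesion receptor *Adgrb1* (-1.98, adjusted p = 0.0499). For *Adgrb1* the phenotypes overlapped and the low values, 1.76 and 1.86, were those of the weak array. *Iqsec1* too was lowest on the weak array, at 0.888 and 0.723, beside 2.41 and 2.93 in the other MRL/lpr samples and 3.74 to 4.73 in MRL/+. The *Iqsec3* values of the weak array lay within the range of the other MRL/lpr samples.

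Of 20 receptors and adhesion partners, 15 were tested, and in MRL/lpr against MRL/+ 1 rose and 4 fell. *Gria1*, the GluA1 subunit of AMPA receptors, rose. Its levels were 2.30, 1.70, 3.66 and 2.01 in MRL/lpr, 0.719, 0.540, 0.632 and 0.549 in Fn14ko and 0.546, 0.199, 0.495 and 0.208 in MRL/+ (2.83 against MRL/+, adjusted p = 0.0003, and 1.93 against Fn14ko, adjusted p = 0.0042). The MRL/+ levels in Cy5, 0.199 and 0.208, lay under the 95th percentile of the negative controls there (0.309 and 0.230). So did the 2.01 of MRL/lpr replicate 4 (2.55), so the size of this rise is uncertain. *Cacng3*, an auxiliary subunit of AMPA receptors, was lower in MRL/lpr than in MRL/+ (-3.10, adjusted p = 0.0008) and than in Fn14ko (-1.48, adjusted p = 0.0330). *Grin1*, the obligatory subunit of NMDA receptors, stood at 2.60, 2.12, 0.964 and 0.662 in MRL/lpr and 4.91, 6.09, 3.71 and 8.84 in MRL/+ (-2.03, adjusted p = 0.0236). The other two falls, named after their values were seen, were *Kcnj4*, a potassium channel bound by Dlg proteins (-1.93, adjusted p = 0.0168), and *Gria3*, the GluA3 subunit (-1.04, adjusted p = 0.0113). In all 4 falls the 2 lowest MRL/lpr values were those of the weak array, for *Kcnj4* 1.27 and 1.17 beside 2.41 and 2.67. *Nlgn3*, an adhesion protein that binds PSD-95, was higher in MRL/lpr than in Fn14ko (1.45, adjusted p = 0.0450). The medians of this list, -0.17, 0.08 and -0.31 for MRL/lpr against MRL/+, MRL/lpr against Fn14ko and Fn14ko against MRL/+, stand beside -0.01, 0.03 and -0.16 for all genes.

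The genes whose pattern was most like the mean of the 8 tested members over the 12 samples were *Ndufa3* (r = 0.925), *Jakmip1* (0.917), *Gm5859* (0.914), the probe A_55_P2037538 (0.899) and *Cyp46a1* (0.883). Over the 10 samples outside the weak array they were A_55_P2037538 (0.961), *Bmx* (0.949), *Angptl8* (0.938), *Ndufa3* (0.937) and *6430548M08Rik* (0.933), so *Ndufa3* and that probe stood in both lists. Among the members themselves, *Shank1* and *Homer1* varied most alike (r = 0.873 over 12 samples and 0.869 over 10), whereas *Dlg3* and *Shank1* ran opposite (-0.587 and -0.605). *Homer2* and *Dlgap1* had r = 0.711 over 12 samples and -0.048 over 10. These correlations are descriptions over samples that share phenotypes, arrays and dyes, and they carry no test.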

How the data were processed

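Total RNA from the hippocampus of 12 mice was labelled with Cy3 or Cy5 and hybridised to 6 Agilent two-colour arrays, 2 mice of the same phenotype per array. The authors deposited scanner output of Agilent Feature Extraction 12.1, in which spot foreground and local background are intensity values on a linear scale, not normalised between channels, with probe positions in mm9. No replicates were pooled. The labels give each mouse as a separate sample.

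Local background was subtracted from the foreground. A spot was kept where foreground was at least 2 times background without an outlier flag in all 12 samples, which left 10877 of 43020 spots and 8864 genes. Each channel was divided by the median of its kept spots, and spots were averaged to probes and probes to genes on the linear scale. Without the weak array the filter covered the other 10 samples, so a gene could rest on other probes, and *Shank2* had a spot that passed. MRL/lpr was then left as 2 mice on 1 array, so this array and the phenotype could not be told apart. No fit of these 10 samples took the array as a block. *Shank2*, *Tnfrsf12a*, *Fas* and all single probes were read without the filter, on the same scale, with a floor of 1% of the channel median. Log2 values of all 12 samples were fitted with limma 3.58.1 in R 4.3.3 (lmFit, and eBayes with a trend), with phenotype and dye as terms. Adjusted p-values are Benjamini-Hochberg values over all genes, or over all 39429 probes, with a threshold of 0.05. Exact permutation tests were two-sided, and 4 samples against 4 cannot go below 0.0286. Array precision is limited by the number of arrays, and 2 mice on 1 array share its error.

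All members were named in every comparison, with up to 3 called genes of each partner list per comparison by size of change, and the 5 genes most correlated with the members' mean. Members and lists were chosen with earlier results of these data known. On simulated data for MRL/lpr against MRL/+ (8864 genes, the same spread in each phenotype), limma recovered 14 of 100 genes changed by 1 on the log2 scale and 61 of 100 changed by 2, with 1 unchanged gene among 76 calls. With each phenotype's own spread it recovered 28 and 66 of 100, and 48 of 142 calls were unchanged genes. Recovery and calls of unchanged genes were not tested with mice of 1 array that resemble each other (consensus correlation 0.710 in these data). Alternatives were other backgrounds, filters, scalings and normalisations, the array or the replicate number as a block, array weights, the methods' t-test and leaving out samples. Those with negative-control background, with the scale of all spots, with genes above the negative controls, and those for single probes were chosen after seeing the data. Some results of the partner and marker lists are not reported here.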

Additional observations from a re-analysis of the deposited data

Results flagged for a closer look

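One of 90 sets of 4 samples (1.11%), each a gene or probe in 1 phenotype, had a sample far from the other 3, where chance gives about 1 in 20. It was the *Dlg2* probe at chr7:97671237-97671296 in Fn14ko, where 3 of 4 samples lay at the floor of 0.01 and replicate 4 at 0.0114, so that its gap was 1 of the whole range. The probe was not well above background in any of the 12 samples.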

How the results depend on the processing

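Of 807 values for single members and the long *Homer1* probe under an alternative, 707 kept their direction and their side of the threshold, 25 lost a call, 32 gained one and 43 changed sign. Where no cause is named, the cause was not tested.

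In MRL/lpr against MRL/+, the 1 member called became 2 with no filter, with the processed signal or with negative-control background, and 3 without the weak array, with normexp, with quantile normalisation or with array weights. It became 0 with array as a random block, with only the 2 phenotypes, with the methods' t-test, and among genes above the negative controls, which leave 1 member to test. *Dlg2* there had adjusted p = 0.199, 0.0608 and 0.117 in the first 3 of these and 0.121 with no filter and the scale of all spots, over a range of 0.0008 to 0.199. Against Fn14ko the count of 0 became 1 without the weak array, and 2 with array weights or the scale of all spots. In Fn14ko against MRL/+ it became 2 without the weak array, 5 with array weights and 3 with only the 2 phenotypes. Leaving out 1 sample gave 1 to 3, 0 to 1 and 0 to 0 members in the order of the comparisons above.

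Of member probes, called 2, 1 and 0 times, 11, 2 and 9 were called without the weak array, 1 and 6 in the first 2 comparisons with the scale of all spots, 0 in both with array as a block, and 0 in the second with negative-control background. Leaving out 1 sample gave 0 to 5, 0 to 10 and 0 to 1.

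Counts over all genes, 813, 353 and 46, became 2818, 1636 and 3785 without the weak array (17936 genes tested), 1770, 772 and 0 with normexp, 449, 147 and 0 with quantile normalisation, 7, 4 and 0 with array as a block, 1450, 901 and 3414 with array weights, 37, 18 and 2308 with only the 2 phenotypes, 294, 3787 and 0 with the scale of all spots, and 125, 83 and 72 among genes above the negative controls. The methods' t-test gave 0, 0 and 8 after Benjamini-Hochberg, and 1403 and 1155 before it in the first 2. In the second comparison the count was 2022 with no filter and 663 with the processed signal. In the third it was 19 without the dye term, 21 without a trend and 4 with negative-control background. Without 1 sample the counts ran from 126 to 3467, 40 to 4298 and 0 to 126. The median of all genes, -0.01, 0.03 and -0.16, became 0.21, 1.34 and -0.97 with no filter, 0.25, 0.044 and 0 with negative-control background, and -0.25, -0.081 and -0.017 with the scale of all spots.

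Partner genes called, 10, 5 and 1, became 24, 16 and 21 without the weak array, 6, 1 and 0 with quantile normalisation, 1, 0 and 0 with array as a block, 17, 11 and 17 with array weights, 2, 1 and 14 with only the 2 phenotypes, 0, 0 and 2 with the methods' t-test, 2, 13 and 0 with the scale of all spots, and 1, 0 and 0 above the negative controls. In the second they were 9 with no filter, 10 with the processed signal and 1 with negative-control background. In the third they were 2 with no filter or 75th percentile scaling and 0 with normexp or negative-control background. Without 1 sample they ran from 3 to 22, 1 to 26 and 0 to 2.

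Deviations of same-numbered samples correlated at 0.442, -0.395, -0.355 and 0.381 for MRL/lpr and MRL/+ and at 0.201, -0.059, -0.101 and 0.288 for MRL/lpr and Fn14ko, so the replicate numbers did not pair these samples. For Fn14ko and MRL/+ they correlated at 0.398, 0.257, 0.201 and 0.503, all above 0, which is a hint of pairing from the data. Odd and even numbers also mark the dye. With the number as a replicate block, 505, 179 and 0 genes passed, 1, 0 and 0 members, 2, 0 and 0 member probes, and 0 partner genes in the third comparison.

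Signs turned in MRL/lpr against MRL/+ for *Shank2* (-0.9998 without the weak array, -0.94 with the processed signal, -0.25 with normexp, -0.39 with quantile normalisation, -0.059 with negative-control background, -0.48 with the scale of all spots, and -0.44 to 0.69 without 1 sample), *Homer2* (0.15 without the weak array and 0.10 with array weights), *Dlgap1* (0.022 without the weak array), *Dlg3* (-0.58 with the processed signal and -0.25 with the scale of all spots), *Homer1* (0.25 with the processed signal) and *Dlg4* (-0.77 to 0.051 without 1 sample). Against Fn14ko they turned for *Shank1* (-0.46 without the weak array, -0.13 with normexp, -0.51 with quantile normalisation, -0.073 with array weights, -0.94 with the scale of all spots), *Shank2* (-0.21 without the weak array, -0.30 with the scale of all spots), *Homer2* (0.059 without the weak array, 0.16 with array weights), *Dlgap1* (0.10 without the weak array), *Homer1* (0.51 with the processed signal, -0.63 to 0.073 without 1 sample) and *Dlg4* (-0.078 with array weights, -0.44 with the scale of all spots). In Fn14ko against MRL/+ they turned for *Homer2* (0.094 without the weak array, 0.082 with the processed signal, 0.00061 with quantile normalisation, 0.00092 with 75th percentile scaling, 0.76 with the scale of all spots, -0.14 to 0.15 without 1 sample), and with the scale of all spots for *Shank3* (0.58), *Homer1* (0.45), *Dlgap1* (0.59) and the long *Homer1* probe A_55_P1982111 (0.54). None of these values was called in the comparison it belongs to.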
